A study of Mus musculus with 7 samples.

Results

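Crosslink sites on mitochondrial RNA were taken from iCLIP libraries of the translation factor DENR. The members were all sites on the mitochondrial chromosome in 7 deposited site lists. Each site was assigned, with its strand, to a mitochondrial ribosomal RNA (rRNA), transfer RNA (tRNA) or protein-coding gene, or to none. The lists held 789 mitochondrial sites among 42120 sites in all. These 789 sites fell on 511 distinct nucleotides, because one nucleotide can be listed in several libraries.

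In iCLIP, proteins are bound covalently to contacted RNA by ultraviolet light, a chosen protein is recovered with an antibody, and each cDNA that ends at the bound nucleotide records its position. Each site carries a score, the height given by the peak caller, and only sites that passed the false discovery rate of 0.05 are listed. All libraries came from NIH3T3 cells, a line of mouse fibroblasts. For the group called DENR overexpressing (DENR OE, n = 3), cells were transiently transfected with Denr in a FLAG-Venus-pLenti6 vector, grown in 1 dish, and subjected to anti-DENR immunoprecipitation. For the non-transfected group (NT, n = 2), endogenous DENR was precipitated from 6 dishes with the same antibody. For the control group (n = 2), IgG replaced the antibody. DENR OE and NT thus differed at once in transfection, in DENR expressed from the vector and in the number of dishes, and these cannot be told apart. The amount of DENR is not measured in the lists. Which cells served for the IgG libraries is not given in the sources used here.

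Mitochondria carry their own circular chromosome, which is transcribed on both strands as long polycistronic RNAs. These are cut into the 12S and 16S rRNAs of the mitochondrial ribosome, a set of tRNAs, and mRNAs for core subunits of respiratory complexes I, III and IV and of ATP synthase (complex V). DENR, in contrast, is known as a cytosolic factor: together with MCTS1 it acts on the 40S subunit in translation reinitiation and ribosome recycling. Mitochondrial translation uses its own initiation and recycling factors. The question here was which mitochondrial transcripts were listed in DENR libraries, where along them, and whether this differed between groups.

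The stretches on which most of the description rests are printed here first, 5′ to 3′ on the transcribed strand. They were read from GENCODE M21 transcripts on build mm10, and capitals mark nucleotides listed in 2 or more of the 5 DENR libraries. The first 4 are the rRNA stretches that were listed in at least 3 DENR libraries and held the largest scores. They lie at chrM:1645-1672, chrM:1839-1869, chrM:2536-2562 and chrM:323-360, all on the plus strand.
16S rRNA (mt-Rnr2), nucleotides 552 to 579: caaCataaAATTTcAATTAATTCCATAA
16S rRNA (mt-Rnr2), nucleotides 746 to 776: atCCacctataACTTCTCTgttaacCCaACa
16S rRNA (mt-Rnr2), nucleotides 1443 to 1469: gGTTtcTatctATTTacgatttctccc
12S rRNA (mt-Rnr1), nucleotides 254 to 291: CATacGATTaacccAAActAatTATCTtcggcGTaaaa

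The tRNAs are shown whole, without the CCA end that is added after transcription, because their sites lay at particular places along the molecule. They are mt-Tm (methionine, chrM:3845-3913, plus strand), mt-Tc (cysteine, chrM:5192-5257, minus strand), mt-Tl1 (leucine, chrM:2676-2750, plus strand) and mt-Tt (threonine, chrM:15289-15355, plus strand). The last pair is mt-Tp (proline, chrM:15356-15422, minus strand) and mt-Tl2 (the other leucine tRNA, chrM:11671-11741, plus strand).
mt-Tm: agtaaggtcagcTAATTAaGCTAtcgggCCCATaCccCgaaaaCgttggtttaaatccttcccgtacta
mt-Tc: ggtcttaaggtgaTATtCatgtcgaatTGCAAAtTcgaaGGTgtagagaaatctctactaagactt
mt-Tl1: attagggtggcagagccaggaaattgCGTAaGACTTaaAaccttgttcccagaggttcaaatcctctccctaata
mt-Tt: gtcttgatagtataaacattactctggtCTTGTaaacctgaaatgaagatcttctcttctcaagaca
mt-Tp: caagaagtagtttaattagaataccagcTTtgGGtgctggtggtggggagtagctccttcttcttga
mt-Tl2: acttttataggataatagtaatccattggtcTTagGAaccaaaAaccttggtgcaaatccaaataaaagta

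Mitochondrial sites were listed in every DENR library and in neither IgG library. The DENR OE libraries held 33, 387 and 182 mitochondrial sites and the NT libraries 14 and 173. The lists themselves differed in length, with 4012, 16137 and 10209 sites in DENR OE, 4324 and 7185 in NT, and 19 and 234 in IgG. The read depth of the libraries is unknown, so a nucleotide missing from a list is not shown to be free of crosslinks. The IgG lists were so short that 0 sites still allowed a mitochondrial share of up to 17.6% in replicate 1 and 1.56% in replicate 2 (exact 95% Clopper-Pearson limits, which here and below cover counting error only). The shares in 3 of the 5 DENR libraries lay above the limit of IgG replicate 2, and the other two lay below it.

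**Figure D1:**
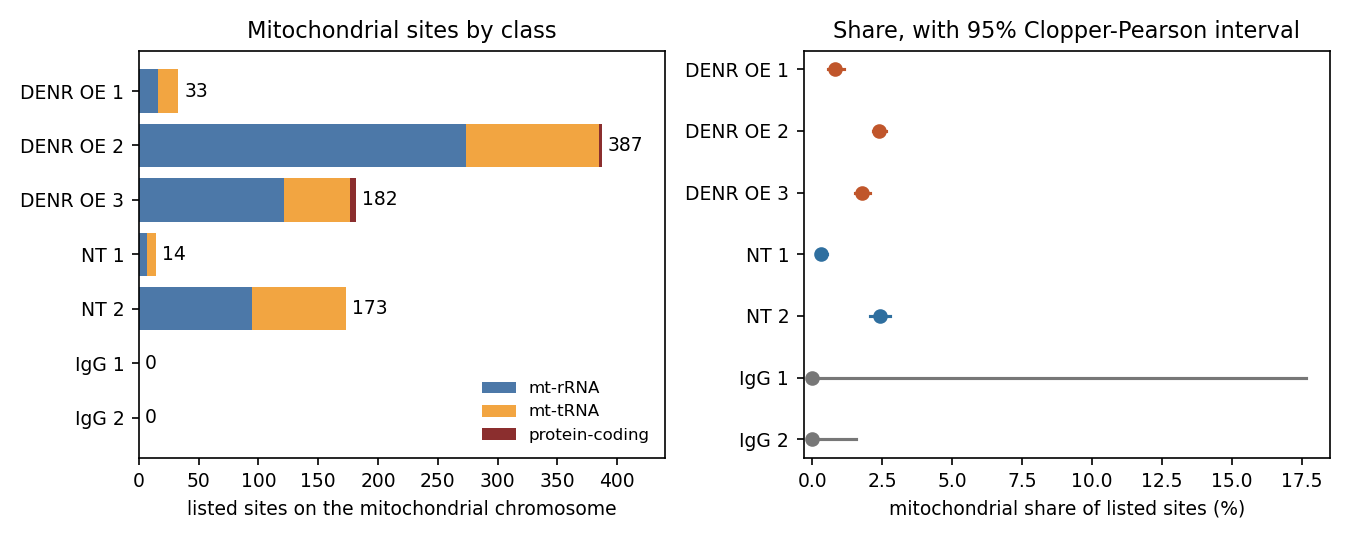
Left, number of listed sites on the mitochondrial chromosome in each library, stacked by class of gene (bars start at 0). Right, the same number as a percentage of all listed sites, with exact 95% Clopper-Pearson intervals as horizontal lines. Mitochondrial sites numbered 14 to 387 in the DENR libraries and 0 in both IgG libraries, and the interval of IgG replicate 1 reaches 17.6%.

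As a share of the list, mitochondrial sites made up 0.823% (95% interval 0.567 to 1.15), 2.40% (2.17 to 2.65) and 1.78% (1.53 to 2.06) in the DENR OE libraries. In the NT libraries they made up 0.324% (0.177 to 0.543) and 2.41% (2.07 to 2.79). The NT libraries thus held both the lowest and the highest share, and the groups overlapped. The mean share was 1.67% ± 0.794 in DENR OE (SD, n = 3) and 1.37% ± 1.47 in NT (SD, n = 2), a difference of 0.302 percentage points (two-sided exact permutation test, p = 1). With 3 against 2 libraries the smallest p that this test can give is 0.2. Over the 5 DENR libraries the share was 1.55% ± 0.941 (SD, n = 5) against 0% in both IgG libraries (two-sided exact permutation test, p = 0.0952, the smallest possible with 5 against 2; adjusted p = 0.476 over 10 tests). The number of sites, compared as log10(sites + 1), was higher by 1.96 in DENR than in IgG libraries (exact permutation test, p = 0.0952, adjusted p = 0.476) and by 0.42 in DENR OE than in NT (exact permutation test, p = 0.4, adjusted p = 0.857). The two-sided p was taken as 2 times the smaller tail, and computed so, none of these tests could reach 0.05. Where nothing says that replicates came from separate cultures, as here, these p-values measure only the spread between libraries.

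Mitochondrial sites had a median score equal to or below that of their list, and a smaller share of the score than of the sites. Their median score was 1, 2 and 2 in DENR OE and 1 and 2 in NT, beside a median of 2 over all sites of each of these lists. Their highest score was 18, 54 and 34 in DENR OE and 2 and 36 in NT. They took 0.335%, 0.986% and 0.639% of the summed score in DENR OE and 0.110% and 0.950% in NT, in each case less than their share of sites. On the assembled copy of the cytosolic 18S rRNA on chromosome 17, 416, 775 and 631 sites were listed in DENR OE, 355 and 752 in NT, and 5 and 23 in IgG. Per kilobase of gene, the summed score in DENR OE replicate 2 was 17885 on this 18S copy, 476 on mitochondrial 16S rRNA and 305 on 12S rRNA. In NT replicate 2 it was 11142 on the 18S copy, 153 on 16S and 99.5 on 12S. The 18S copy had the highest density of score in each of the 5 DENR libraries, above both mitochondrial rRNAs.

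All 789 sites lay in annotated genes on the transcribed strand. None was antisense to a gene or outside one, and none fell where genes of a strand overlap. Of the 37 annotated mitochondrial genes, 18 had a site. The 9 genes of the minus strand are 8 tRNA genes and mt-Nd6, a complex I subunit, and 89 sites lay on this strand against 700 on the plus strand. The minus-strand share was 12.1%, 9.82% and 11.5% in DENR OE and 0% (of 14 sites) and 15.0% in NT, and the difference in means of 3.65 percentage points was within the spread (two-sided exact permutation test, p = 0.8, adjusted p = 1).

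The sites were spread unevenly over the classes of gene. The 2 rRNA genes span 2537 nucleotides, 16.4% of the annotated length, and held 513 sites (65.0%). The 22 tRNA genes span 1501 nucleotides (9.72%) and held 269 sites (34.1%), in 13 of these genes. The 13 protein-coding genes span 11403 nucleotides (73.8%) and held 7 sites (0.887%), in 3 genes. Counted as distinct positions per kilobase, this came to 135 on rRNA, 107 on tRNA and 0.614 on protein-coding genes. The abundance of each RNA was not measured in these libraries, so the densities are not scaled to how much of each transcript was present.

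The shares of the classes overlapped between the groups. Mitochondrial rRNA held 48.5%, 70.8% and 66.5% of the mitochondrial sites in DENR OE and 50.0% and 54.9% in NT. The means were 61.9% ± 11.8 (SD, n = 3) and 52.5% ± 3.47 (SD, n = 2), and the groups overlapped (two-sided exact permutation test, p = 0.6, adjusted p = 0.857). Mitochondrial tRNA held 51.5%, 28.7% and 30.8% in DENR OE and 50.0% and 45.1% in NT. The mean of 36.99% ± 12.6 (SD, n = 3) in DENR OE and the mean of 47.5% ± 3.47 (SD, n = 2) in NT did not differ beyond this spread (two-sided exact permutation test, p = 0.6, adjusted p = 0.857). Protein-coding genes held 0%, 0.517% and 2.75% in DENR OE and 0% in both NT libraries (two-sided exact permutation test, p = 0.6, adjusted p = 0.857).

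The 16S rRNA, mt-Rnr2 (chrM:1094-2675, plus strand), forms the core of the large mitochondrial ribosomal subunit. It had the most sites of all mitochondrial genes, with 16, 190 and 79 in DENR OE and 7 and 65 in NT, on 240 distinct positions. When positions no more than 15 nucleotides apart were joined, they formed 14 stretches that together cover 411 of its 1582 nucleotides. The listed sites were thus gathered in a minor part of the molecule, as the plot of scores along the rRNAs shows. They had been called with a flank of the same 15 nucleotides, and how far the calling itself gathered them was not tested.

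Nucleotides 552 to 579 formed the one 16S stretch that was listed in all 5 DENR libraries. Its summed score was 19, 82 and 51 in DENR OE and 9 and 65 in NT, 17.5% of the score of the gene. It was also the only 16S stretch in NT replicate 1, where it held all 7 of the 16S sites. Inside it, nucleotide 572 scored 2, 7 and 2 in DENR OE and 1 and 9 in NT. Nucleotide 576 scored 1, 3 and 1 in DENR OE and 2 and 2 in NT, and nucleotide 577 scored 1, 1 and 1 in DENR OE and 2 and 3 in NT. These are 3 of the 4 mitochondrial positions listed in every DENR library. The groups overlapped at nucleotides 572 and 576, and at nucleotide 577 both NT scores were above the DENR OE scores, by 1 or 2 units of the score. Of all 1925 positions listed in the 5 DENR libraries, 2 (0.104%) had both NT scores above every DENR OE score and 164 (8.52%) had them below; the scores are not scaled to the unequal libraries, and nucleotide 577 was singled out after its values were seen.

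Other nucleotides of this stretch were listed in 4 libraries or fewer. Nucleotides 563 and 567 were not listed in DENR OE replicate 1, and scored 5 and 4 in DENR OE replicate 2, 6 and 6 in DENR OE replicate 3, 1 and 1 in NT replicate 1, and 3 and 1 in NT replicate 2. Nucleotides 573, 578 and 579 were listed in every DENR library except NT replicate 1. Nucleotide 573 scored 1, 8 and 5 in DENR OE and 9 in NT replicate 2. Nucleotide 578 scored 3, 5 and 4 in DENR OE and 5 in NT replicate 2, and nucleotide 579 scored 5, 9 and 3 in DENR OE and 11 in NT replicate 2. The listed scores were therefore low at each nucleotide and spread over a run of adjoining ones, which appear as capitals in the printed stretch.

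Nucleotides 746 to 776 of the 16S rRNA were listed in 4 libraries, and here 1 nucleotide stood out. Nucleotide 761 scored 18, 42 and 19 in DENR OE and 36 in NT replicate 2, and was not listed in NT replicate 1. It had the highest 16S score in DENR OE replicate 1, where it gave 18 of a summed 16S score of 45, and in NT replicate 2, where it made up 14.9% of that score. In DENR OE replicate 2 it shared the highest score with nucleotide 472, and in DENR OE replicate 3 nucleotide 867 was higher, at 20. Close by, nucleotide 759 scored 2, 9 and 11 in DENR OE and 6 in NT replicate 2.

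Other 16S stretches were listed in fewer libraries. Nucleotides 213 to 237 had a summed score of 4, 67 and 24 in the DENR OE libraries and were not listed in NT. Nucleotides 1443 to 1469 had 63 and 28 in DENR OE replicates 2 and 3 and 35 in NT replicate 2. A set of 4 stretches (292 to 308, 357 to 423, 457 to 487 and 1144 to 1168) were listed in DENR OE replicate 2 alone, with summed scores of 41, 109, 75 and 38. Other stretches were absent from that longest list: nucleotides 1329 to 1351 scored 33 in DENR OE replicate 3 and 7 in NT replicate 2, and nucleotides 1540 to 1564 scored 28 and 45. The length of a list therefore did not settle which stretches it held. The list of DENR OE replicate 2 also differed in layout, since it had no track line and was ordered by signed score, and what this has to do with the missing stretches was not tested.

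**Figure D2:**
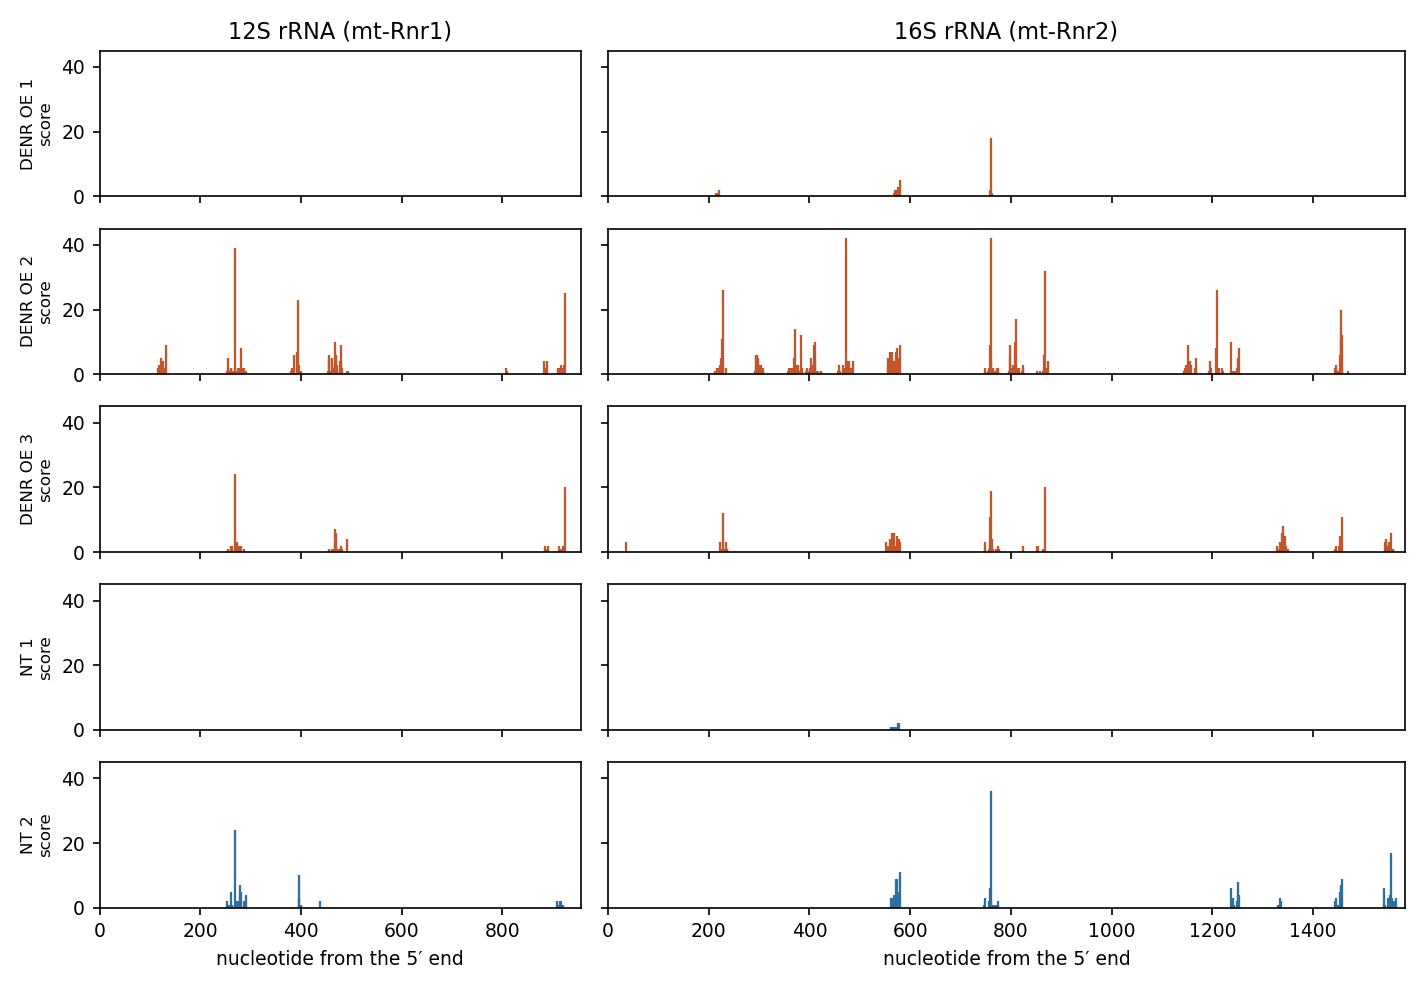
Score of each listed nucleotide along the mitochondrial 12S (left) and 16S (right) rRNA, by library, against the nucleotide counted from the 5′ end. Nucleotide 269 was the tallest 12S position in each of the 3 libraries with 12S sites, and on 16S nucleotide 761 was seen in 4 libraries and the stretch from 552 to 579 in all 5.

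The 12S rRNA, mt-Rnr1 (chrM:70-1024, plus strand), belongs to the small mitochondrial subunit, the counterpart of the cytosolic subunit that DENR is known to bind. It had 84 and 42 sites in DENR OE replicates 2 and 3, 30 in NT replicate 2, and 0 in DENR OE replicate 1 and NT replicate 1. The latter pair were also the libraries with the fewest mitochondrial sites, 33 and 14. On 103 distinct positions the sites formed 8 stretches that cover 145 nucleotides, 15.2% of the gene. In the 3 libraries that listed both rRNAs, the density was lower on 12S than on 16S. It was 88.0 against 120 sites per kilobase in DENR OE replicate 2, 44.0 against 49.9 in DENR OE replicate 3 and 31.4 against 41.1 in NT replicate 2.

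Nucleotides 254 to 291 led on the 12S rRNA, with summed scores of 80, 46 and 67 in these 3 libraries, 38.6% of the score of the gene. Within them, nucleotide 269 was the highest 12S position in each library. It scored 39 in DENR OE replicate 2, 24 in DENR OE replicate 3 and 24 in NT replicate 2, which was 13.4%, 21.1% and 25.3% of the 12S score of the library. Near the 3′ end, nucleotides 909 to 924 scored 40, 25 and 10 in the same order, and these were the only other 12S nucleotides that formed a stretch in all 3 libraries. Nucleotides 453 to 493 scored 76 and 35 in the DENR OE libraries and were not listed in NT replicate 2, whereas nucleotides 381 to 400 scored 46 in DENR OE replicate 2 and 16 in NT replicate 2.

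Among the tRNAs, 13 of 22 had sites, and the initiator and elongator tRNA for methionine, mt-Tm, led. It had 9, 15 and 15 sites in DENR OE and 7 and 11 in NT, and it was the only tRNA listed in all 5 DENR libraries. The cysteine tRNA, mt-Tc, had 4, 17 and 13 sites in DENR OE and 0 and 12 in NT. The phenylalanine tRNA, mt-Tf, had 4, 8 and 0 in DENR OE and 0 and 8 in NT. In DENR OE replicate 1 these were the 3 tRNAs with sites, and in NT replicate 1 mt-Tm was the only one.

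A further 10 tRNAs had sites in the 3 libraries with more mitochondrial sites only. In DENR OE replicate 2, DENR OE replicate 3 and NT replicate 2, mt-Tl1 had 12, 9 and 9 sites. In the same order mt-Tt had 5, 7 and 4, mt-Tp had 6, 3 and 6, and mt-Ts2 (serine) had 6, 3 and 9. Sites on mt-Tq (glutamine) numbered 4, 2 and 8, those on mt-Tv (valine) 5, 1 and 5, and those on mt-Tl2 6, 0 and 6. Sites on mt-Ti (isoleucine) numbered 14, 2 and 0 and those on mt-Ta (alanine) 11, 1 and 0, and mt-Th (histidine) had 2 sites in DENR OE replicate 2. Differences between libraries were thus as large within DENR OE as between DENR OE and NT for mt-Ti, mt-Ta and mt-Tl2.

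Along the tRNAs the sites were concentrated around the anticodon, the triplet that reads the codon. The anticodon arm was taken as the 17 nucleotides from 7 before to 9 after the first anticodon nucleotide, and the loop as the middle 7 nucleotides. The arm held 146 of 269 tRNA sites, 54.3% (95% interval 48.1 to 60.3), although it makes up 24.9% of the length of the 13 tRNAs. The loop alone held 110 sites, 40.9% (35.0 to 47.0), in 10.3% of the length. The 5′ side of the arm held 92 sites, 34.2% in 34.6% of the length, and the 3′ side 31 sites, 11.5% in 40.5% of the length. Adjoining nucleotides are not independent, and the window was chosen after the positions had been seen, so these shares are descriptions.

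The arm share was lower in the libraries with few tRNA sites, but their intervals were wide and overlapped those of the others. It was 52.3% (58 of 111 sites) in DENR OE replicate 2, 58.9% (33 of 56) in DENR OE replicate 3 and 61.5% (48 of 78) in NT replicate 2. It was 35.3% (6 of 17, interval 14.2 to 61.7) in DENR OE replicate 1 and 14.3% (1 of 7, interval 0.361 to 57.9) in NT replicate 1. Of these sites, 9 of the 17 and all 7 lay on mt-Tm, whose arm share over all libraries was 26.3%. Whether this lowered the shares was not tested. In 8 of the 13 tRNAs the nucleotide with the highest summed score lay in the anticodon loop. Except on mt-Th, where nucleotides 66 and 67 were listed, no tRNA had a site after nucleotide 45. These are the last nucleotides of mt-Th, and mt-Ts2 begins directly after them, at chrM:11613 on the same strand. Reads running 3′ from these sites would thus lie mostly on mt-Ts2 or an uncut precursor, and which RNA gave them was not tested. A site near the 3′ end of a short RNA leaves only a short read, and the shortest read that was mapped is not given in the sources used here.

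**Figure D3:**
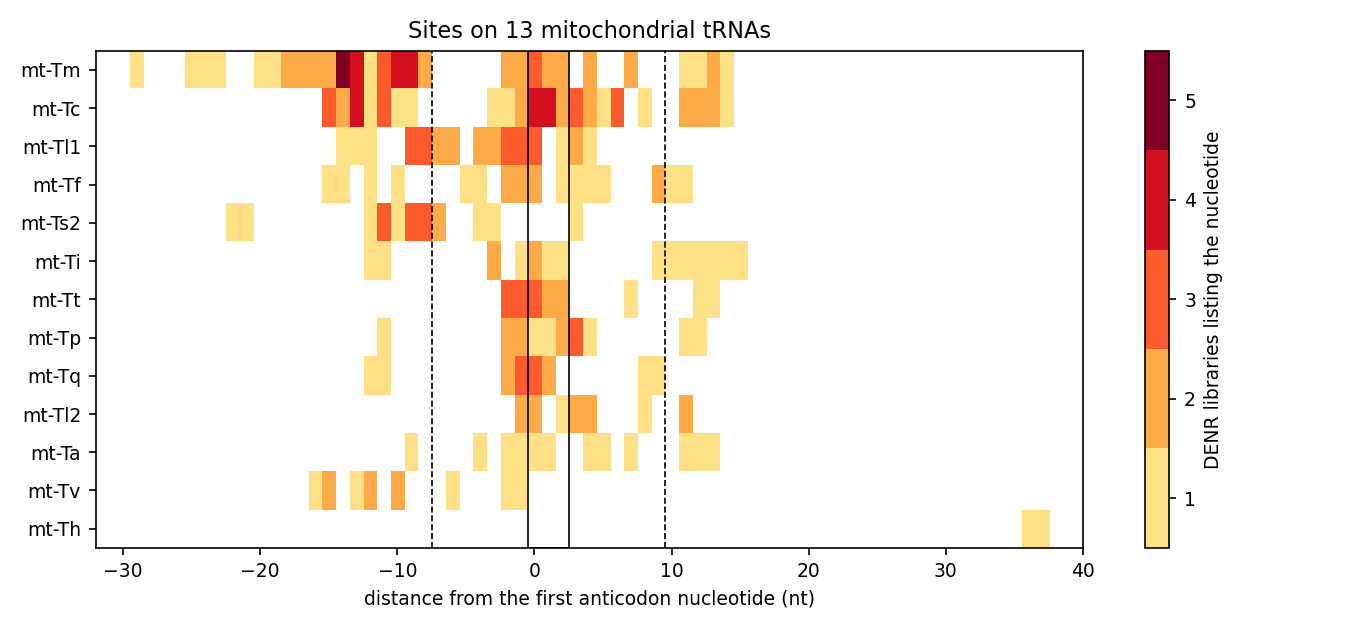
Nucleotides of 13 mitochondrial tRNAs listed in DENR libraries, against the distance from the first anticodon nucleotide. Colour gives the number of DENR libraries (1 to 5), solid lines enclose the anticodon and dashed lines the anticodon arm. On 8 of the 13 tRNAs most sites lie between the dashed lines, whereas those of mt-Tm, mt-Ts2 and mt-Tv lie mostly on the 5′ side of the arm.

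The cysteine tRNA carried the highest single mitochondrial score. Its nucleotide 29, the first anticodon base, scored 7, 54 and 28 in DENR OE and 20 in NT replicate 2, 58.0% of the score of the gene. On mt-Tt the highest position lay 2 nucleotides before the anticodon, at nucleotide 29, and scored 16, 6 and 15 in DENR OE replicate 2, DENR OE replicate 3 and NT replicate 2. On mt-Tq the first anticodon base, nucleotide 33, scored 1, 8 and 4 in this order, and the base before it scored 6, 2 and 4. The leading mt-Tq position thus differed between libraries, whereas mt-Tc and mt-Tt each led at 1 nucleotide wherever it was listed.

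On another 3 tRNAs the leading position by summed score was the base directly 3′ of the anticodon, which is chemically modified in many tRNAs. On mt-Tp this was nucleotide 34, with scores of 24, 13 and 15 in DENR OE replicate 2, DENR OE replicate 3 and NT replicate 2, 69.3% of the score of the gene. On mt-Tl2 it was nucleotide 36, with 16 in DENR OE replicate 2 and 13 in NT replicate 2. On mt-Tf it was also nucleotide 36, with a score of 23, but in NT replicate 2 alone. There DENR OE replicate 2 led at nucleotide 33, with 10, and DENR OE replicate 1 at nucleotide 37, with 4. Modification was not measured in these libraries.

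The other leading positions lay outside the loop or were seen in few libraries. On mt-Tl1, nucleotide 28, which is 8 nucleotides before the anticodon, scored 34, 19 and 30 in the 3 libraries, 61.5% of the score of the gene. On mt-Ts2, nucleotide 21, which is 9 nucleotides before the anticodon, scored 10, 5 and 10. In DENR OE replicate 2 alone, mt-Ti led at nucleotide 42 with a score of 22 and mt-Ta at nucleotide 35 with 6. On mt-Tv nucleotide 18 had the highest summed score, 28.9% of the score of the gene, with 9 in DENR OE replicate 2 and 2 in NT replicate 2. The leading mt-Tv position within each of these libraries was another: nucleotide 17 scored 10 in DENR OE replicate 2 alone, and nucleotide 32 scored 7 in NT replicate 2 alone.

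The methionine tRNA showed different profiles in different libraries. Its nucleotide 17, which lies 5′ of the anticodon arm, was the fourth mitochondrial position listed in all 5 DENR libraries, with scores of 6, 18 and 18 in DENR OE and 1 and 6 in NT. Nucleotide 32, the middle anticodon base, scored 34 in DENR OE replicate 3 and 27 in NT replicate 2, and was not listed in DENR OE replicate 2. Nucleotide 14 was listed in DENR OE replicate 1, with a score of 3, and in DENR OE replicate 2, where it scored 28, and in no other library. The anticodon arm of mt-Tm accordingly held 15 of its 57 sites, 26.3%, beside 54.3% over all 13 tRNAs.

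**Figure D4:**
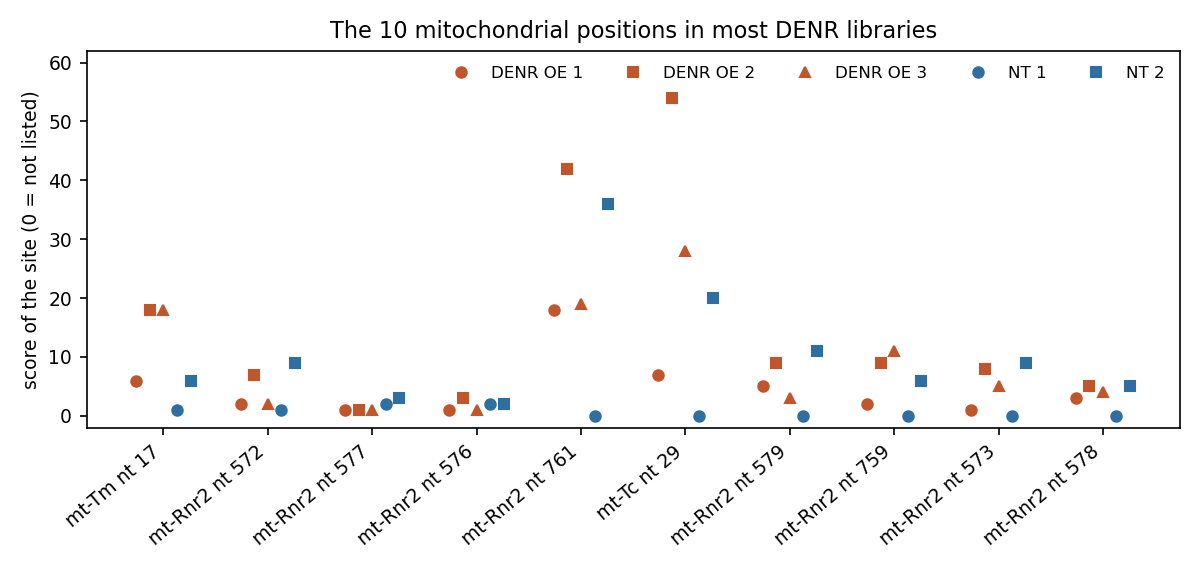
Scores in the 5 DENR libraries at the 10 mitochondrial nucleotides listed in most of them, ordered by the number of libraries and then by the mean share of the summed score of the list. A score of 0 means that the nucleotide was not listed, and orange (DENR OE) and blue (NT) symbols overlap or meet in height at each nucleotide except 577 of mt-Rnr2.

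The 7 sites on protein-coding genes came from the DENR OE libraries and each was listed in 1 library. Of the 7 complex I genes, mt-Nd2 had 3 sites in DENR OE replicate 3, at nucleotides 102, 104 and 734 of the gene, with scores of 3, 2 and 4. In the same library mt-Nd6, on the minus strand, had 2 sites at nucleotides 165 and 175, with scores of 1 and 2. Of the 3 complex IV genes, mt-Co1 had 2 sites in DENR OE replicate 2, at nucleotides 1043 and 1051, both with a score of 1. Mitochondrial mRNAs were thus seen as a few low sites, of which only nucleotide 734 of mt-Nd2 had no other listed site nearby. No site was listed on the complex I genes mt-Nd1, mt-Nd3, mt-Nd4, mt-Nd4l and mt-Nd5, the complex III gene mt-Cytb, the complex IV genes mt-Co2 and mt-Co3, or the ATP synthase genes mt-Atp6 and mt-Atp8.

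Mitochondrial sites were also a small part of the sites on mRNA. Sites in exons of protein-coding genes, outside rRNA loci, numbered 221, 1379 and 1122 in DENR OE, 280 and 542 in NT, and 0 and 21 in IgG. The mitochondrial share of these was 0%, 0.145% and 0.446% in DENR OE and 0% in both NT libraries. The mean difference of 0.197 percentage points was not beyond the spread (two-sided exact permutation test, p = 0.6, adjusted p = 0.857).

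A nuclear copy of mitochondrial DNA covers some of these genes. A segment of chromosome 1 (24611535 to 24616188, minus strand) corresponds to chrM:6390-11042, and the 7 pseudogenes annotated on it match the mitochondrial sequence at 99.7% to 100% identity. How reads that map equally well to both places were treated is not given in the sources used here. The segment holds 4357 of the 11403 protein-coding nucleotides (38.2%), among them mt-Co2, mt-Atp8, mt-Atp6, mt-Co3, mt-Nd3 and mt-Nd4l whole and parts of mt-Co1 and mt-Nd4. It also holds the 5 tRNA genes mt-Ts1, mt-Td, mt-Tk, mt-Tg and mt-Tr. No mitochondrial site was listed in the segment, whereas 13 of the 17 tRNA genes outside it had one.

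The nuclear copy itself had 3 listed sites, all in DENR OE replicate 2. They had scores of 3 and 1 at the counterparts of nucleotides 16 and 19 of mt-Tg. The remaining site, with a score of 2, lay at about the counterpart of nucleotide 12 of mt-Tr, where the offset between both sequences shifts. For the copied genes, the absence of listed sites can therefore not be read as an absence of crosslinks. The remaining 7046 protein-coding nucleotides lie outside the segment and held all 7 coding sites. Less similar pseudogenes match there too: Gm13340 on chromosome 2 spans both mt-Co1 sites at 97.6% identity, Gm13339 on chromosome 2 spans nucleotide 734 of mt-Nd2 at 96.7%, and Gm11408 on chromosome 4 spans both mt-Nd6 sites at 93.6%. The mt-Co1 sites, at chrM:6370 and chrM:6378, also lie just before the start of the segment at chrM:6390. Reads running 3′ from them could thus enter it. Whether these pseudogenes or the segment took up reads of these genes was not tested. No rRNA nucleotide lies in the segment. Among annotated transcripts the closest nuclear match of at least 100 nucleotides in the rRNA region had 88.4% identity. Lars2, the nuclear gene of the mitochondrial leucyl-tRNA synthetase, had 0 matches.

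Most mitochondrial positions were listed once. Of 511 positions, 324 (63.4%) were listed in 1 DENR library, 187 (36.6%) in 2 or more, 67 (13.1%) in 3 or more and 4 (0.783%) in all 5. Of the 22752 positions elsewhere, 34.5% were listed in 2 or more, 22.7% in 3 or more and 8.44% in all 5. On the 18S copy, 83.1% of 878 positions were listed in 2 or more, and in exons of nuclear protein-coding genes 7.57% of 2934. On mitochondrial tRNA 73 of 161 positions (45.3%) and on mitochondrial rRNA 114 of 343 (33.2%) were listed in 2 or more, and on protein-coding genes 0 of 7. Between pairs of DENR libraries, 63.3% ± 11.8 of the mitochondrial sites of the shorter list were found at the same nucleotide of the longer one (SD over 10 pairs, which share libraries), beside 69.6% ± 10.1 for all other sites.

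Positions with a high score were not always shared. Of the 13 mitochondrial positions with a score of at least 10 in DENR OE replicate 3, 11 were listed in DENR OE replicate 2 and 10 in NT replicate 2. Of the 13 in NT replicate 2, 10 were listed in DENR OE replicate 2 and 10 in DENR OE replicate 3. Of the 31 in DENR OE replicate 2, 16 were listed in DENR OE replicate 3 and 13 in NT replicate 2. DENR OE replicate 2 lacked nucleotides 32 and 33 of mt-Tm, nucleotide 1554 of 16S rRNA and nucleotide 36 of mt-Tf, which scored at least 10 in one or both of the other libraries.

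The base at the listed positions, read as T for U, was A at 37.2%, T at 32.5%, C at 17.2% and G at 13.1% of the 511 positions. In the genes that held them, the bases made up 34.0%, 29.5%, 20.4% and 16.2% in the same order. T was about as frequent beside the 511 positions, at 29.7% for 1 nucleotide upstream and 34.1% for 1 nucleotide downstream. At the 67 positions listed in 3 or more DENR libraries, T made up 46.3% (31 positions) and G 8.96% (6 positions). Ultraviolet light is known to crosslink uridine readily, and adjoining positions are not independent, so these percentages are given without a test.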

How the data were processed

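The authors mapped reads to mm10 with Bowtie 0.12.7 allowing 2 mismatches (the submitters' processing notes name Bowtie2), and excluded reads sharing a molecular identifier and start. Sites were called by the authors per library (iCount peaks, 100 permutations, 15-nt flank, false discovery rate 0.05). By their track lines, 6 lists were called with regions kept separate, but the paper's methods give the opposite option, and the list of DENR OE replicate 2 has no track line. The deposited score of a site is a whole number, not scaled to library size, whose sign gives the strand; library depth is unknown.

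Sites were assigned to genes of GENCODE release M21, of the same build, in the order rRNA, tRNA, protein-coding. Two-sided exact permutation tests compared group means, with Benjamini-Hochberg adjustment over 10 tests, and the functions were tested on simulated data. Numbering within a gene starts with 1 at its 5′ nucleotide. Anticodons were searched from nucleotide 26 to 37, and nuclear copies with blastn 2.17.0 (e-value 1e-05) among annotated transcripts only. Software was scipy 1.17.1, pandas 2.3.3 and numpy 2.4.6 under Python 3.11.15.

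Named were all rRNA and protein-coding genes, the tRNA genes with a site, Lars2 and the 10 positions listed in most DENR libraries, with ties broken by mean share of score. Members, lists and tests were chosen with earlier results of these data known. The anticodon window, the rRNA stretches, other named positions and the tRNA genes without a site were chosen after values were seen. Alternatives were minimum scores of 3 and 10, merging within 15 nt, weighting by score, lists of 4012 sites, removal of rRNA genes, other overlap tolerances and leaving out each library.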

Additional observations from a re-analysis of the deposited data

Results flagged for a closer look

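In DENR OE replicate 3, protein-coding genes held 2.75% of the mitochondrial sites (5 of 182), far from the other 4 DENR libraries, which held 0%, 0.517%, 0% and 0%. This library stood out by Dixon's criterion at the 95% level. The criterion was applied to several quantities, and this quantity alone met it. It assumes normally distributed values, whereas most values here were 0, so how often chance would meet it is not known. All 5 sites lay on mt-Nd2 and mt-Nd6, with scores of 1 to 4.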

How the results depend on the processing

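Between DENR OE and NT the direction turned under 7 alternatives, given here, and the share of sites on no gene was 0 throughout. Against IgG, with 0 mitochondrial sites in both libraries, no alternative could turn it. The difference in site number between DENR OE and NT ranged from -0.113 to 0.951 (log10) when single libraries were left out, with -0.113 without NT replicate 1, and was 0.733 at a minimum score of 3. The difference in mitochondrial share ranged from -0.740 to 1.34 percentage points with single libraries left out (-0.740 without NT replicate 1 and -0.0631 without DENR OE replicate 2), and was -0.0805 without rRNA genes, 0.0628 with sites merged within 15 nt and 0.124 weighted by score. The difference in minus-strand share was -8.11 at a minimum score of 10, -6.45 at 3, 8.63 after merging and 1.17 in lists of equal length. With single libraries left out it ranged from -3.87, without NT replicate 1, to 11.2. At both minimum scores NT replicate 2 was the only NT library left with mitochondrial sites. The turns of minus-strand share at these scores and without NT replicate 1 thus all rest on that NT library. The protein-coding share of mitochondrial sites and of exonic sites differed by 0 at a minimum score of 10, since no coding site reached it. With one library left out in turn, the rRNA share differed by 5.03 to 16.2 points, the tRNA share by -17.8 to -6.40 and the coding share by 0.258 to 1.63. Other settings moved the rRNA share further, to 0.381 at a minimum score of 3, 2.08 after merging and 33.3 at a minimum score of 10. The tRNA share moved to -1.57, -6.97 and -33.3 in the same order, and the coding share to 4.89 after merging and 0.712 weighted by score. At both minimum scores these 3 class shares had NT replicate 2 as the only NT library. The mitochondrial share of exonic sites was 0.0844 in lists of equal length, 0.114 at a minimum score of 3 and 0.0781 weighted by score. With one library left out, it differed by 0.0725 to 0.295, and against IgG the share differed by 1.33 to 1.853 and the site number by 1.80 to 2.16. That share fell to 0.604 weighted by score and to 0.611 at a minimum score of 10, where 1 IgG library remained. It fell to 0.664 without rRNA genes, 0.851 after merging and 1.01 in lists of equal length. That site number fell to 0.820 at a minimum score of 10 and 1.12 after merging. The replicate block changed no direction: site number differed by 1.88 against IgG and 0.352 between DENR OE and NT, share by 1.49 and 0.245, rRNA share by 7.19 and tRNA share by -7.44. It could use replicates 1 and 2 only, with 4 splits. Deviations of same-numbered libraries over 18 genes correlated at 0.499 and 0.416, but the third DENR OE library has no partner and the numbers are not known to mark a shared batch. Site numbers were not scaled, and in both groups replicate 1 had the fewest mitochondrial sites and replicate 2 the most. With 2 NT libraries, the same DENR OE libraries against the other NT library necessarily gave -0.499 and -0.416. The correlations therefore cannot show a pairing. Positions in 2 or more DENR libraries numbered 187 at the identical nucleotide, 336 within 5 nt, 386 within 15 nt and 14 at a minimum score of 10. With one library left out they numbered 95 to 186, with 95 without DENR OE replicate 2, 117 without DENR OE replicate 3 and 120 without NT replicate 2. Positions in all libraries numbered 4, with 28 within 5 nt, 47 within 15 nt and 0 at a minimum score of 10, and 7 without DENR OE replicate 1 and 15 without NT replicate 1. The cause of these changes was not tested. The lists hold no depth, so absence from a list, in the short IgG lists above all, is weak evidence.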
